A study of Mus musculus with 5 samples.

Results

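The nuclei described here are the adipocyte nuclei of the fat around the mouse heart that carry little or no RNA of the heat-producing program. They were picked from the peri-heart white adipose library (HWAT) by counts of unique molecular identifiers (UMIs), each standing for 1 captured RNA molecule. A nucleus had to show at least 200 genes and at most 10% of mitochondrially encoded UMIs. It needed at least 4 UMIs, over at least 3 genes, of the 8 adipocyte genes Acvr1c, Slc1a3, Fam13a, Nrg4, Tenm4, Ghr, Plin1 and Acsl1. It could hold at most 1 UMI over the 9 genes of other cell types Flt1, Ptprb, Pdgfra, Mrc1, F13a1, Upk1b, Bank1, Skap1 and Myh11. It could hold at most 1 UMI over the 4 thermogenic genes Ucp1, Fabp3, Cpt1b and Otop1. Of the 12523 HWAT nuclei past the filters, 1524 met the rule, or 12.2% (95% exact Clopper-Pearson interval 11.6 to 12.8), out of 75891 such nuclei in the 5 libraries. Another 153 HWAT adipocyte nuclei had at least 4 UMIs over at least 2 of the thermogenic genes and are called thermogenic below, and 97 adipocyte nuclei lay between both sets.

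The series holds single-nucleus RNA profiles of 5 white fat depots of 10-week-old male mice on a chow diet: peri-heart (HWAT), subcutaneous (SWAT), epididymal (EWAT), mesenteric (MWAT) and perirenal (NWAT). Each depot is 1 library of nuclei from pooled mice, 20 for HWAT, 6 each for SWAT, EWAT and NWAT, and 10 for MWAT. The protocol names C57BL/6J mice, while the strain entries read C57BL/9J (HWAT), C57BL/6J (SWAT, EWAT), C57BL/8J (NWAT) and C57BL/7J (MWAT). Every animal was perfused with heparin in PBS, and the lymph nodes beside SWAT and MWAT, but not those of the other depots, were stated to be taken out. With 1 pooled library per depot there is no replicate, so no comparison between depots carries a test, and depot, pool, strain entry and library cannot be told apart. Levels are given in CPM, the summed UMIs of a gene scaled to the total UMIs of the group, with exact Poisson intervals. Ratios of levels have exact 95% intervals, and all intervals and floors cover counting error only.

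White adipocytes store triglyceride in 1 large lipid droplet, release fatty acids by lipolysis and secrete adipokines. Thermogenic adipocytes, brown or beige, hold many small droplets and mitochondria in which UCP1 lets the proton gradient run down as heat. The fat around the mouse heart and great vessels is known to hold both kinds.

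The HWAT library stood apart from the others in RNA of airway, immunoglobulin, B-cell and macrophage genes, but not in that of every other cell type. The secretoglobins Scgb1a1, Scgb3a1 and Scgb3a2 with Bpifa1 and Bpifb1, secretory proteins of the airway lining, summed to 2094 CPM in the 1524 nuclei and to 1028 to 1644 CPM in 5 other HWAT classes of at least 50 nuclei (B cell, macrophage, endothelial, fibro-adipogenic progenitor, T or NK cell) and 4313 CPM in a wider mesothelial class, but to at most 0.421 CPM in adipocyte nuclei of the other depots. Immunoglobulin genes took 0.639% of UMIs, against at most 0.00857% elsewhere. Ribosomal protein genes took 5.28% against 1.27% to 2.81%, and mitochondrial genes 1.36% against 0.282% to 0.814%. Summed B-cell markers reached 179 CPM against 5.9 to 27.9, macrophage markers 1404 against 243 to 375 (mainly Cd74 and Lyz2), mesothelial markers 275 against 3.8 to 313, and cardiac muscle markers 86.5 against 14.7 to 90.6. At least 2-fold above the mean log2 level of the other depots, as 10.3% of the 15813 genes measured were, stood 4 of 4 measured B-cell markers, 4 of 6 plasma-cell, 3 of 6 macrophage, 7 of 7 mesothelial and 5 of 6 cardiac markers, and none of these lists had a measured member at 0 UMIs in HWAT. Endothelial markers were low, at 22.9 CPM against 57.0 to 116. Of 7 measured mural markers 0 were 2-fold above the mean and 3 below, and of 8 nerve and glia markers 0 were above and 3 below. Summed fibro-adipogenic progenitor markers lay within the range of the other depots, at 824 CPM against 479 to 1058. All 9 measured genes of the free-RNA list (immunoglobulin genes, Jchain and Cxcl13, without the airway genes) were at least 2-fold above the mean of the other depots. HWAT shared 40, 55, 76 and 52 cell barcodes with SWAT, EWAT, MWAT and NWAT, and 9 of its 1524 barcodes marked a chosen adipocyte nucleus in another library.

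The 1524 nuclei gave 3399877 UMIs, with a median of 2035 per nucleus (503 to 19331). The same rule took 6778 SWAT nuclei (55.1%), 9871 EWAT nuclei (53.3%), 4779 MWAT nuclei (24.2%) and 6875 NWAT nuclei (53.8%), with medians of 2127, 2528, 1548 and 3273 UMIs. The thermogenic nuclei had a median of 2478 UMIs. The HWAT share of nuclei was the lowest of the 5 libraries. Of the 1524 nuclei, 33 (2.17%, 1.5 to 3.03) had no UMI of Adipoq (adiponectin), Cidec (a droplet protein) or Lipe (hormone-sensitive lipase), none of which the rule used. The matching shares were 1.92% in SWAT, 2.69% in EWAT, 5.67% in MWAT and 0.48% in NWAT, so the adipocyte label held for nearly all nuclei in every depot. At the lower bound of the rule, the 45 nuclei with exactly 4 adipocyte UMIs had 1395 CPM of Adipoq, and 56 nuclei with 3 such UMIs, just outside, had 755 CPM.

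The 8 adipocyte genes of the rule are described only. Ghr, the growth hormone receptor, which carried the most UMIs of them, had 2868 CPM in HWAT against 5426 to 7921 CPM in the other depots. Tenm4 had 378 CPM against 805 to 1450 CPM, and Nrg4, a secreted neuregulin, 744 CPM against 874 to 1561 CPM. Fam13a had 2300.1 CPM in HWAT against 3228 to 5791 CPM in the other depots, and Slc1a3, a glutamate transporter, had 836 CPM against 1876 to 2333 CPM. Plin1, the main droplet coat protein, had 1104 CPM against 1153 to 1399 CPM, Acsl1, an acyl-CoA synthetase, 1116 CPM against 1226 to 1867 CPM, and Acvr1c, an activin receptor, 637 CPM against 882 to 1413 CPM. All 8 were lowest in HWAT, where the thermogenic nuclei held still less of Acvr1c, Slc1a3, Fam13a, Tenm4 and Ghr and more of Nrg4, Plin1 and Acsl1.

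The label was less clear-cut for the thermogenic side. Cidea, a droplet-fusing protein abundant in brown fat (18:67343604-67367785, + strand, GRCm38 annotation), had 161 CPM in the HWAT non-thermogenic nuclei and 3002 CPM in the HWAT thermogenic nuclei. The other depots held 84.1 CPM (SWAT), 0.956 CPM (EWAT), 13.1 CPM (MWAT) and 13.5 CPM (NWAT), the 5 other HWAT classes at most 15.6 CPM and a wider mesothelial class 18.6 CPM. HWAT was thus the highest of the 5 depots, 1.91 times SWAT (1.73 to 2.11), although nuclei with more than 1 thermogenic UMI had been taken out. Among nuclei with no thermogenic UMI at all it was 119 CPM in HWAT and 76.0 CPM in SWAT. Cidea was seen in 16.7% of these nuclei (14.9 to 18.7), and in 11.1% when every nucleus was thinned to 1000 UMIs (122 shallower nuclei left out), against 6.27% in SWAT and 1.05% to 1.96% in the other HWAT classes, mesothelial included, thinned likewise. Unthinned, the SWAT share was 11.6% and that of the other HWAT classes 0.826% to 2.81%, at medians of 2127 UMIs in SWAT and 1012 to 1647 UMIs in those classes.

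Slc36a2, an amino acid transporter of the adipocyte surface with more RNA in brown fat (11:55158470-55185077, − strand), had 683 CPM in the non-thermogenic HWAT nuclei and 1490 CPM in the thermogenic ones. In the other depots it had 302 CPM (SWAT), 125 CPM (EWAT), 370 CPM (MWAT) and 359 CPM (NWAT). It was seen in 64.4% of the HWAT non-thermogenic nuclei, and in 44.8% after thinning, against 11.3% to 30.7% in the thinned nuclei of the other depots. The level was therefore above that of each other depot and below that of the thermogenic nuclei. Ucp1, a gene of the rule, is only described: 2.69% of the nuclei held its single permitted UMI, against 95.4% of the thermogenic nuclei and 0.83% to 1.74% of the other HWAT classes, mesothelial included. Thinned to 1000 UMIs, the share was 0.927% of the nuclei, against 0% to 1.35% of the other HWAT classes, mesothelial included. The highest of these, in the endothelial class, rests on 1 nucleus. The rule caps Ucp1 in the chosen nuclei but not in those classes, so the shares cannot place Ucp1 against the background of the library.

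Levels of several other thermogenic genes followed the UMIs of the 4 rule genes along all 1774 HWAT adipocyte nuclei, from 1371 nuclei with 0 and 153 with 1 (the chosen nuclei) to 91 with 2 or 3 and 159 with 4 or more. Cidea had 119, 499, 1453 and 2949 CPM in that order. Cox8b, a muscle-type cytochrome oxidase subunit, had 130, 315, 722 and 1323 CPM, and Prdm16, a co-regulator of brown adipocyte identity, had 28.8, 64.0, 127 and 178 CPM. Ppargc1a, a coactivator of mitochondrial genes, had 32.4, 53.3, 149 and 215 CPM. For these genes the nuclei with a single thermogenic UMI lay between those with none and those with 2 or 3. Adrb3, the beta-3 adrenergic receptor, did not follow the order, with 407, 437, 302 and 355 CPM, and Elovl3, a fatty acid elongase of brown fat, had 1 UMI in all, in the last bin. In the other direction, Cfd (adipsin, a complement protease secreted by fat) had 31345, 26554, 14110 and 5244 CPM. Pon1 (paraoxonase 1) had 319, 259, 136 and 36.6 CPM, and Angptl8, a secreted regulator of lipoprotein lipase, had 258, 184, 109 and 64.1 CPM. The bins share the library and are cut by the counts of genes that go together, so these orders are descriptions.

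**Figure D1:**
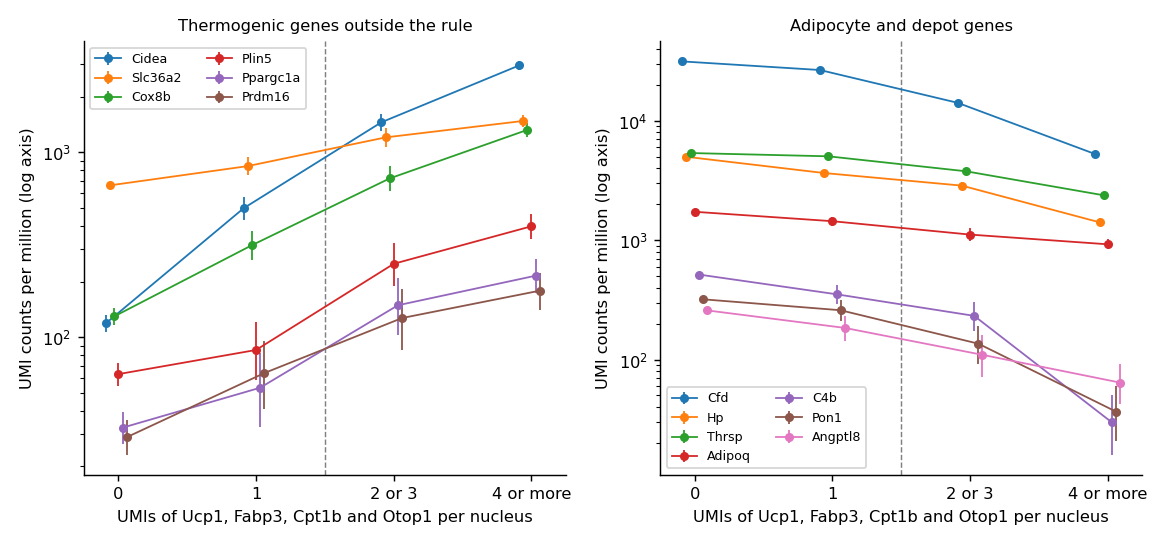
Level (CPM, log scale) of genes outside the rule in HWAT adipocyte nuclei, by the number of UMIs over Ucp1, Fabp3, Cpt1b and Otop1 (0, 1, 2 to 3, and 4 or more); points are summed levels with exact Poisson intervals. Cidea was at 119 CPM with 0 such UMIs and at 2949 CPM with 4 or more, while Pon1 was at 319 CPM and 36.6 CPM.

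Of the 28 thermogenic genes outside the rule, 24 could be measured (at least 50 UMIs over the 5 groups). Of these, 8 were at least 2-fold above the mean of the other 4 depots on the log2 scale and 2 were at least 2-fold below it. Over all 15813 genes measured, 10.3% were above and 17.6% below, and the list's median log2 difference was 0.65 against -0.23. Those above were Cidea, Slc36a2, Prdm16, Cox7a1, Cox8b, Esrrg, Slc27a2 and Plin5, and those below were Adrb3 and Gmpr. Of those 8, Cidea, Slc36a2, Cox8b, Slc27a2 and Plin5 were also 2-fold above every other HWAT class, mesothelial included, and Prdm16, Cox7a1 and Esrrg were not: Cox7a1 had 38.5 CPM against 54.3 CPM in endothelial nuclei. Slc27a2, at 5.29 CPM from 18 UMIs, lay under the 3-count floors of the fibro-adipogenic progenitor, endothelial and T or NK cell classes (6.27, 20.4 and 29.2 CPM). It cannot be placed against those classes. Plin5, which ties lipid droplets to mitochondria (17:56111601-56117596, − strand), had 65.6 CPM in HWAT against 16.3, 5.31, 14.6 and 13.05 CPM in SWAT, EWAT, MWAT and NWAT, a ratio of 4.03 to the highest of them (3.35 to 4.85). Prdm16 was not highest in HWAT, with 32.6 CPM in HWAT and 64.1 CPM in SWAT. Ppargc1a had 34.7 CPM, the lowest of the 5 depots, against 39.8 to 62.5 CPM. The list thus held members above, within and below the range of the other depots. Set against the thermogenic nuclei, 21 of 23 measured genes were at least 2-fold lower and none was 2-fold higher, where all genes gave 9.16% and 12%. The exceptions were Ucp3 and Adrb3, the beta-3 adrenergic receptor, which had 410 CPM in the non-thermogenic nuclei and 346 CPM in the thermogenic ones.

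Respiratory chain subunits lay at a median of 0.69 above the mean of the other depots (log2 difference), with 5 of 20 at least 2-fold above it (Ndufb5, Cox4i1, Cox5b, Cox6c and Cycs) and 0 below. Over all genes measured, 10.3% were above and 17.6% below. Cox4i1 had 1215 CPM in the non-thermogenic HWAT nuclei, against 700 CPM (SWAT), 559 CPM (EWAT), 687 CPM (MWAT) and 480 CPM (NWAT). None of these 20 genes was also 2-fold above every other HWAT class, a wider mesothelial class included, which 0.942% of all genes were. Genes with short spans stood higher in HWAT overall: by quartile of gene span, from short to long, the median log2 difference over all genes was 0.21, -0.04, -0.33 and -0.61. The share of genes at least 2-fold above the mean was 17.8% in the shortest and 7.59% in the longest quartile. Against the thermogenic nuclei, where the quartile medians ran only between -0.16 and 0.02, 17 of the 20 subunits were at least 2-fold lower. Of all genes measured there, 9.16% were. Fatty acid oxidation genes had a median of 0.44 against the other depots. Only Etfb, an electron carrier subunit, was 2-fold above the mean, with 714 CPM in HWAT and 231 to 400 CPM elsewhere. Ehhadh of peroxisomal oxidation was 2-fold below it, with 47.4 CPM in HWAT and 87.0 to 146 CPM elsewhere.

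Pon1, Angptl8 and Itih4, which encode secreted proteins, were among the genes highest in HWAT against every other depot. At least 2-fold above the highest other depot were 505 of 15813 genes (3.19%), and 67 of them (0.424%) were also 2-fold above each of the 5 other HWAT classes, a condition that leaves out RNA spread evenly through the library. Pon1, a lactonase and esterase of high-density lipoprotein made mainly in liver (6:5168090-5193946, − strand), had 313 CPM in HWAT (294 to 332). It had 14.5 CPM in SWAT, 3.67 CPM in EWAT, 36.7 CPM in MWAT and 26.5 CPM in NWAT. The ratio was 8.51 to MWAT, the highest of these (7.47 to 9.72), and 8.78 to the thermogenic HWAT nuclei at 35.6 CPM (5.30 to 15.8). Pon1 was seen in 36.1% of the nuclei (22.6% thinned), against 0.902% to 6.92% in the other depots (0.377% to 3.23% thinned) and 0.826% to 3.35% of the other HWAT classes. Pon1 was thus spread over many nuclei, with none of the 5 other HWAT classes above 27.2 CPM.

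Angptl8, which rises in fat and liver on feeding and acts on lipoprotein lipase (9:21835510-21837347, + strand), had 250 CPM in HWAT (233 to 267). SWAT had 17.2 CPM, EWAT 7.34 CPM, MWAT 39.7 CPM and NWAT 25.8 CPM, giving a ratio of 6.28 to MWAT (5.52 to 7.17), and the thermogenic nuclei had 64.1 CPM. The level in HWAT lay above all 4 other depots. It was seen in 22.8% of HWAT nuclei (14.5% thinned) against 1.79% to 6.66% elsewhere (0.777% to 3.16% thinned) and at most 1.68% of the other HWAT classes. Itih4, a liver-type plasma protein of the inter-alpha-trypsin inhibitor family (14:30886476-30902353, + strand), had 29.4 CPM in HWAT from 100 UMIs in 86 nuclei. The other depots had 0.516 CPM (SWAT), 0.535 CPM (EWAT), 0.375 CPM (MWAT) and 0.917 CPM (NWAT), so the ratio to NWAT was 32.1 (20.1 to 53.5). It was the largest ratio among the named genes that met the class condition, at a low level. Endothelial nuclei had 1 UMI of Itih4 and T or NK cell nuclei 0, with upper bounds of 37.8 and 35.9 CPM. Counts in these classes are thus too few to place Itih4 against them.

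Others that met the condition had smaller ratios. Ppp1r3b, which brings protein phosphatase 1 to glycogen, had 37.9 CPM in HWAT against 2.26 to 9.61 CPM in the other depots. Usp2, a deubiquitinase under clock control, had 91.2 CPM against 12.2 to 24.9 CPM, and Cd164l2 had 58.2 CPM against 7.75 to 10.7 CPM. Tst, the mitochondrial thiosulfate sulfurtransferase, had 235 CPM against 31.5 to 75.3 CPM. Gsta3, a glutathione transferase, had 414 CPM against 37.7 to 97.3 CPM, but HWAT nuclei of the wider mesothelial class had 531 CPM of Gsta3 and 118 CPM of Tst, so neither was 2-fold above that class. With that class added to the condition, 58 genes (0.367%) passed in place of 67.

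**Figure D2:**
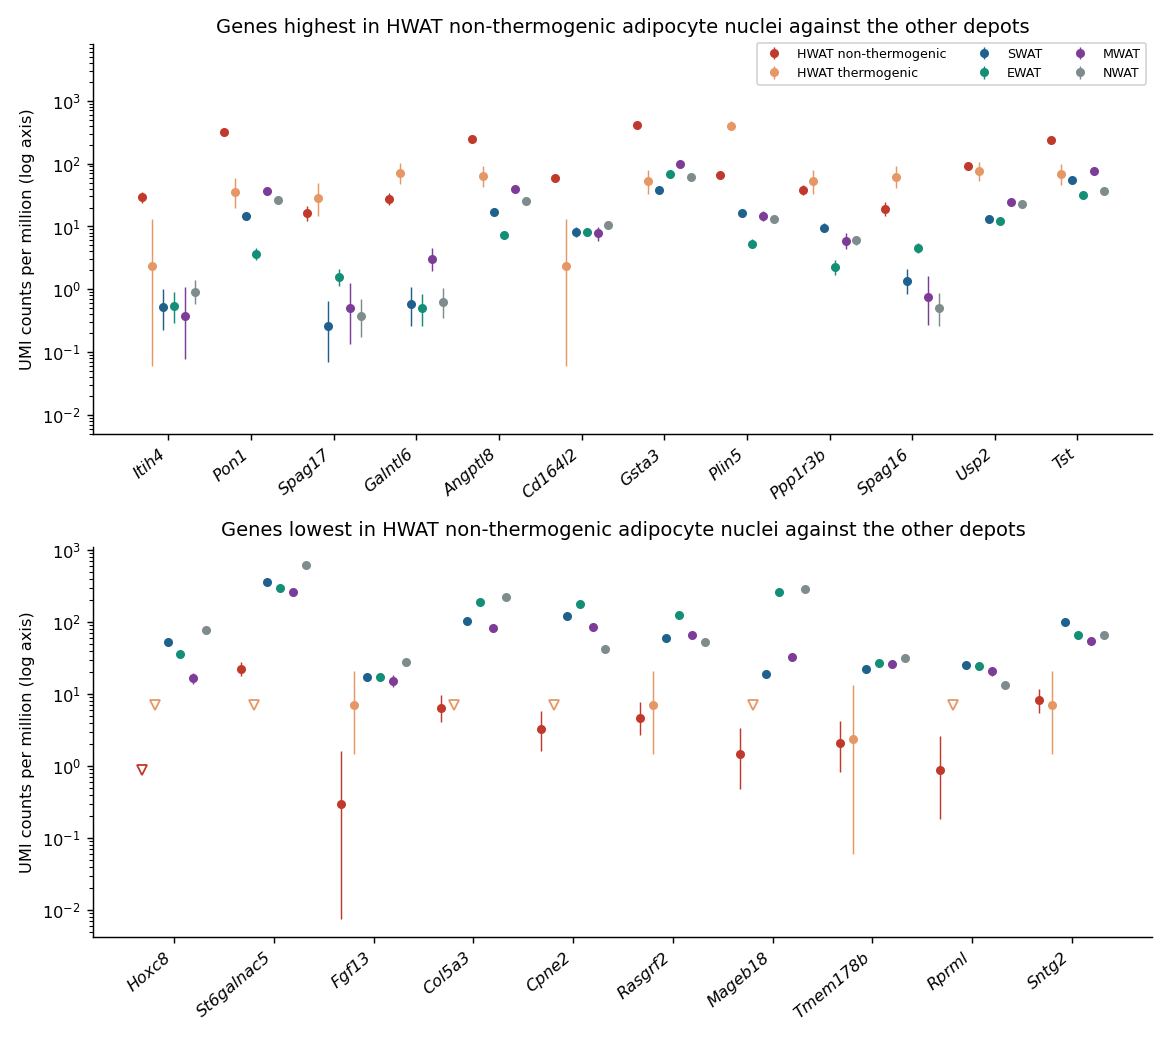
Level (CPM, log scale) of the named genes in HWAT non-thermogenic nuclei, in HWAT thermogenic nuclei and in adipocyte nuclei of the other 4 depots; points are summed levels, bars exact Poisson intervals, and open triangles groups with 0 UMIs, drawn at their floor of 3 counts. Pon1 stood at 313 CPM in HWAT and at 3.67 to 36.7 CPM in the other depots, while Hoxc8 had 0 UMIs in HWAT.

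Some of the largest ratios rested on few nuclei. Spag17 (16.2 CPM in HWAT, at most 1.57 CPM elsewhere) and Spag16 (19.1 CPM, at most 4.51 CPM), proteins of the ciliary axoneme, and Galntl6 (27.7 CPM, at most 3.00 CPM) met the naming condition. Of the 1524 nuclei, 14 had at least 20 UMIs of the airway secretory genes and 7 had at least 10 UMIs of cilia genes, 18 nuclei in all (1.18%). These 18 had a median of 3078 UMIs and 7 adipocyte-rule UMIs, and 6 of them had no UMI of Adipoq, Cidec or Lipe. They held 94.5% of the Spag17 UMIs, 89.2% of those of Spag16, 93.6% of those of Galntl6 and 83.6% of those of Cyp2a5. Spag17 and Spag16 are among the 8 cilia genes by which nuclei were picked, so high shares of both follow in part from the choice. Galntl6 and Cyp2a5 were not used to pick them. Without them Spag17 was at 0.898 CPM, Spag16 at 2.10 CPM and Galntl6 at 1.80 CPM, each below the highest other depot. The high levels of these 3 genes thus rested on the 18 nuclei and not on the bulk. No such nuclei were left out in the other depots, so these positions set a trimmed group against untrimmed ones. The other leading genes kept their levels without the 18: Pon1 had 316 CPM, Angptl8 254 CPM, Itih4 29.9 CPM and Thrsp 5399 CPM. The number of genes at least 2-fold above the highest other depot was then 423 in place of 505.

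Scgb1a1 behaved otherwise. The same 18 nuclei held 65.2% of its UMIs, a share that follows in part from picking nuclei by airway UMIs, those of Scgb1a1 included. Its 1364 CPM became 483 CPM without them. Of all 1524 nuclei 75.9% had at least 1 airway UMI, and the highest had 1229. Scgb1a1, Bpifa1, Scgb3a2, Scgb3a1 and Cyp2a5 had large ratios to the other depots but failed the condition on the other HWAT classes, where Scgb1a1 reached 1066 CPM, and 2703 CPM in the wider mesothelial class. Igkc and Jchain showed the same form: 90.2% of the nuclei had a UMI of either, up to 4537 in 1 nucleus, and 45 nuclei with at least 50 such UMIs (2.95%) held 61.2% of the Igkc UMIs. Without those 45 nuclei Igkc was at 1942 CPM, Pon1 at 306 CPM and Angptl8 at 259.9 CPM, and 468 genes were at least 2-fold above the highest other depot. Nuclei with exactly 1 UMI of the genes of other cell types had 14781 CPM of Igkc, against 3105 CPM in those with none. Their Upk3b, a mesothelial gene, was at 170 CPM against 58.9 CPM, and their Pon1 at 256 CPM against 322 CPM.

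**Figure D3:**
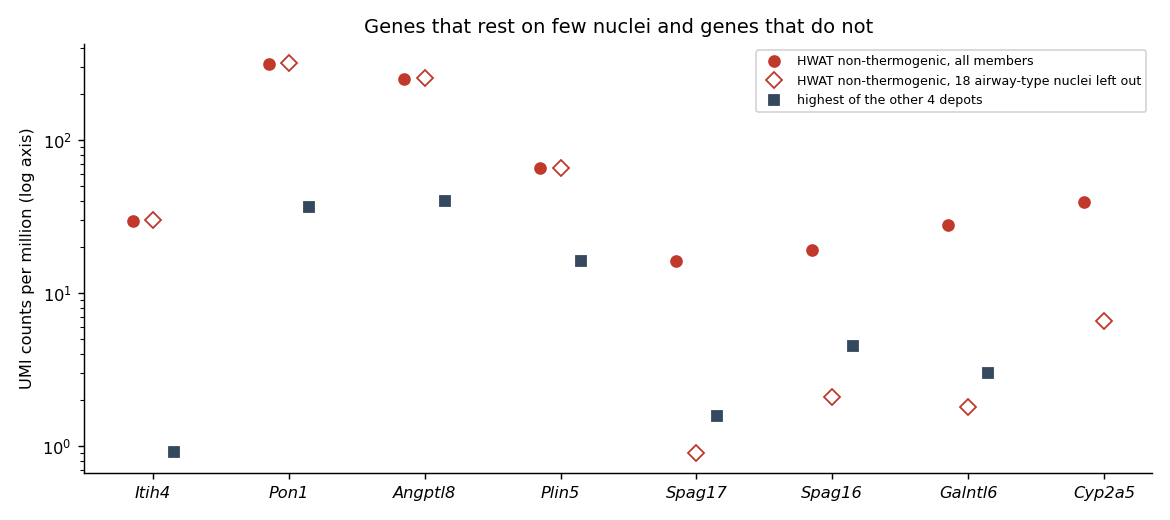
Level (CPM, log scale) of 8 named genes in all 1524 HWAT nuclei, in those left without the 18 airway-type nuclei, and in the highest other depot (square; none for Cyp2a5, which had 0 UMIs in every other depot). Spag17 was at 16.2 CPM in all nuclei and at 0.898 CPM without the 18, against 1.57 CPM in EWAT, where no nuclei were left out.

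The genes of fatty acid synthesis, which turn citrate and acetate into fatty acids under the control of SREBP-1c and ChREBP, were mostly higher than in the thermogenic nuclei of HWAT. Against the thermogenic nuclei, 11 of 17 measured genes were at least 2-fold higher and 1, Elovl6, was at least 2-fold lower, where all genes gave 12% higher and 9.16% lower, and the list's median log2 difference was 1.21 against -0.09. Me1, which supplies NADPH, had 306 CPM in the non-thermogenic nuclei and 47.5 CPM in the thermogenic ones. Acss2, which activates acetate, had 240 CPM and 42.7 CPM. Acaca, the acetyl-CoA carboxylase that commits carbon to synthesis, had 1120 CPM and 349 CPM, and Fasn, fatty acid synthase, had 562 CPM and 214 CPM. Acacb, the mitochondrial carboxylase that restrains fatty acid entry, stood the other way, with 298 CPM and 596 CPM.

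Against the other depots 4 of the 18 genes measured were at least 2-fold above the mean and 0 below, with a median of 0.55, and those 4 were each 2-fold above the other HWAT classes too, mesothelial included. Over all genes measured, 10.3% were above the mean and 17.6% below. Thrsp, a nuclear protein of lipogenic tissue (Spot 14), had 5321 CPM in HWAT (5244 to 5399), against 1285 CPM in SWAT, 579 CPM in EWAT, 2311 CPM in MWAT and 1508 CPM in NWAT. Insig1, which holds the SREBP complex in the endoplasmic reticulum, had 226 CPM in HWAT against 99.9, 44.2, 152 and 46.4 CPM in the same order. Acss2 had 240 CPM against 77.5, 49.3, 141 and 80.0 CPM. Acly, ATP citrate lyase, had 243 CPM in HWAT against 137, 36.3, 254 and 97.0 CPM, so it stood 2-fold above the mean but level with MWAT. Acaca (1120 CPM in HWAT, 2781 CPM in MWAT), Fasn (562 and 744 CPM) and Scd1 (1208 and 2203 CPM), a fatty acid desaturase, were higher in MWAT. HWAT was the highest depot for Thrsp, Insig1 and Acss2, not for Acaca, Fasn or Scd1. Mlxipl, the gene of ChREBP, had 578 CPM in HWAT against 218 to 452 CPM, and Srebf1 had 178 CPM against 79.8 to 182 CPM.

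**Figure D4:**
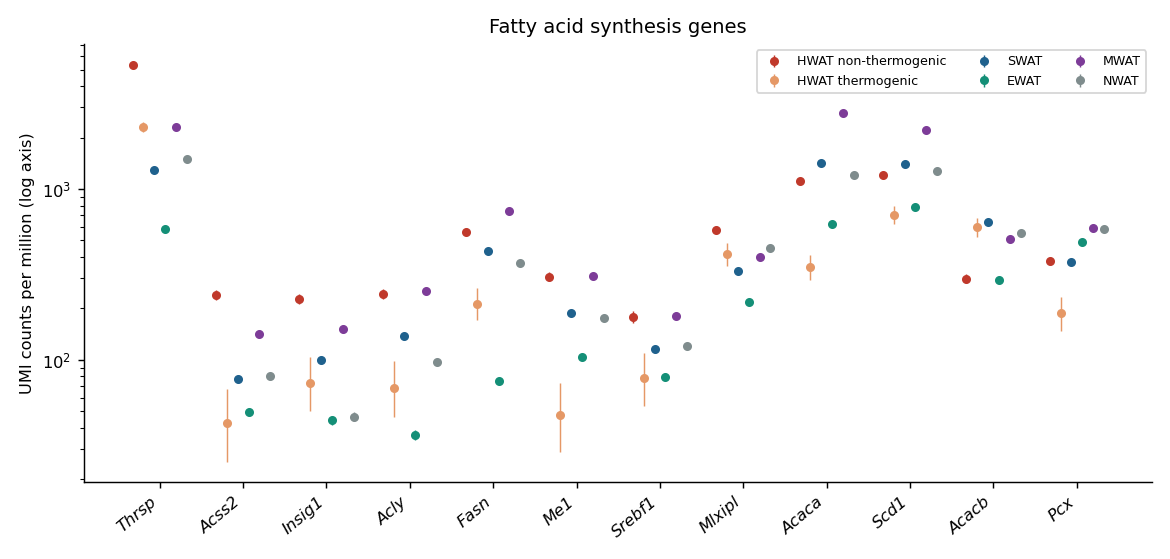
Level (CPM, log scale) of 12 genes of fatty acid synthesis in HWAT non-thermogenic nuclei, HWAT thermogenic nuclei and adipocyte nuclei of SWAT, EWAT, MWAT and NWAT, with exact Poisson intervals. Thrsp stood at 5321 CPM in HWAT and at 579 to 2311 CPM in the other depots, whereas Acaca was highest in MWAT at 2781 CPM.

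The promoters of the 4 lipogenic genes that stood above the mean of the other depots are printed because they are the genes this comparison turns on. Each runs from 250 bases before to 50 bases after a RefSeq transcript start (GRCm38.p6): Thrsp at chr7:97417501-97417800 (− strand), Insig1 at chr5:28071162-28071461 (+ strand), Acss2 at chr2:155517793-155518092 (+ strand) and Acly at chr11:100527951-100528250 (− strand). Capitals mark the E-box CACGTG, the SRE-like TCACNCCAC or CCAAT, searched on both strands so that CCAAT may read ATTGG.
Thrsp: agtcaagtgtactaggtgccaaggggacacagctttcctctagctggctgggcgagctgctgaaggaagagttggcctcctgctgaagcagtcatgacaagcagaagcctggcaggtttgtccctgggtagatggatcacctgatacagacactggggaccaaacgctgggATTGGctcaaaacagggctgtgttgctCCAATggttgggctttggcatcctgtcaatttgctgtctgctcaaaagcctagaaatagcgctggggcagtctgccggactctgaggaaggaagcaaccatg
Insig1: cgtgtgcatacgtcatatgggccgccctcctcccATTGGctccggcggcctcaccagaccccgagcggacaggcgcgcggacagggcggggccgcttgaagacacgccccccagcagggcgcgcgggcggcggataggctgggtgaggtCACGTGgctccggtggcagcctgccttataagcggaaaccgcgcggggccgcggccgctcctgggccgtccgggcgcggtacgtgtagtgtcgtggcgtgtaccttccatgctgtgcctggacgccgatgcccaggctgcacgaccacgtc
Acss2: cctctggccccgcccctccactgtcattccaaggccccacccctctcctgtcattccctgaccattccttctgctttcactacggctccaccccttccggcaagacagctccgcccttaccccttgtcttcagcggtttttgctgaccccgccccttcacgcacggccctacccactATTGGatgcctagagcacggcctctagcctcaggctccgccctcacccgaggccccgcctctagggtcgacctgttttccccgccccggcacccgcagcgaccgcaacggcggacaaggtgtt
Acly: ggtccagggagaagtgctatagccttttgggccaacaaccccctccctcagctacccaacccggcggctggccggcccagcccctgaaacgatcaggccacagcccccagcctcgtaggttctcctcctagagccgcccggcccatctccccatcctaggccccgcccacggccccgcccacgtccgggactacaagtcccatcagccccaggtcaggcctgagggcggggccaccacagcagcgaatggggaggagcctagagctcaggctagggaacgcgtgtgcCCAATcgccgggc
CCAAT occurred in all 4, and CACGTG in that of Insig1. Over the list, 16 of 18 genes matched 21 promoters, of which 15 (71.4%) held CCAAT and 5 (23.8%) held CACGTG, against 37.4% and 7.15% of all 32851 promoters. TCACNCCAC was in 1 (4.76%) against 1.24%. A match is a run of letters, not a site, and a missing match says only that the letters are absent from this window.

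Triglyceride storage and its release gave mixed values. G0s2, which inhibits adipose triglyceride lipase, had 2888 CPM in HWAT (2831 to 2946), against 895, 1090, 900 and 865 CPM in SWAT, EWAT, MWAT and NWAT, and 5697 CPM in the thermogenic nuclei. Its target lipase Pnpla2 had 706 CPM in HWAT and 412 to 684 CPM elsewhere. In lipolysis 1 of 16 genes (G0s2) was at least 2-fold above the mean of the other depots and 3 were 2-fold below it, near the 17.6% of all genes. Those 3 act on cyclic AMP: Adcy5, an adenylyl cyclase, had 34.1 CPM in HWAT against 116 to 152 CPM. Pde3b, the insulin-activated phosphodiesterase, had 537 CPM against 1018 to 1439 CPM, and Prkar2b, a protein kinase A subunit, had 357 CPM against 690 to 888 CPM. Adcy5 was at 2.37 CPM in the thermogenic nuclei, under their floor of 7.12 CPM. In triglyceride assembly only Agpat2, the acyltransferase lost in a form of lipodystrophy, was 2-fold above (877 CPM in HWAT, 228 to 516 CPM elsewhere) and Lpin2 was 2-fold below, out of 12 genes. Of 14 droplet and caveola proteins only Plin5 and Cidea were 2-fold above the mean and 0 were below, with a median of -0.03.

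Among genes of lipid uptake, Lpl, lipoprotein lipase, had 773 CPM in HWAT, the lowest depot, against 1735 CPM (SWAT), 2537 CPM (EWAT), 1258 CPM (MWAT) and 3105 CPM (NWAT). Sort1, a sorting receptor, had 97.7 CPM in HWAT against 199 to 346 CPM. Of 13 measured genes these 2 were at least 2-fold below the mean of the other depots and 1 was above, shares near the 17.6% and 10.3% of all genes, and the list's median of -0.22 was near that of all genes, -0.23.

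Adipokines divided the HWAT nuclei more than the depots. Adipoq had 1694 CPM in HWAT and 1216 to 1880 CPM in the other depots, and Retn (resistin) had 1459 CPM and 1269 to 2035 CPM. Lep (leptin) had 186 CPM in HWAT and 92.3 to 158 CPM elsewhere. Adipoq and Retn lay within the range of the other depots. Of 17 measured adipokines 2 were at least 2-fold above the mean, Angptl8 and Itln1, and 1, Sfrp5, was 2-fold below, where all genes gave 10.3% and 17.6%. Itln1 and Sfrp5 had 1 UMI each in HWAT (0.294 CPM), and Itln1 reached its position only because SWAT, EWAT and NWAT had 0.129 CPM or none while MWAT had 8.25 CPM. Against the thermogenic nuclei 8 of 12 measured genes were 2-fold higher and 0 lower, with a median log2 difference of 2.37. Of all genes, 12% were 2-fold higher there and 9.16% lower. Retn had 1459 CPM in the non-thermogenic and 85.4 CPM in the thermogenic nuclei, a ratio of 17.1 (12.3 to 24.4).

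Other white adipocyte genes separated both HWAT sets as far. Slc7a10, a neutral amino acid transporter of white adipocytes, had 567 CPM in the non-thermogenic and 16.6 CPM in the thermogenic nuclei, a ratio of 34.1 (16.5 to 85.0). Cyp2e1, a cytochrome P450 of fat and liver, had 2815 CPM and 199 CPM, a ratio of 14.1 (11.4 to 17.7). In the other depots Slc7a10 had 522 to 896 CPM and Cyp2e1 1525 to 2043 CPM, so Slc7a10 lay within their range and Cyp2e1 above it. In the other direction Gk, glycerol kinase, had 9.71 CPM in the non-thermogenic and 458 CPM in the thermogenic nuclei. Lncbate10, a long noncoding RNA of brown fat, had 0.882 CPM from 3 UMIs against 214 CPM, a ratio of 0.00413 (0.000836 to 0.0125). The mitochondrial carrier Slc25a42 had 59.1 CPM and 999 CPM, and the nuclear receptor Esrrg 37.9 CPM and 726 CPM.

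Complement and acute-phase genes included some of the highest levels. Hp, haptoglobin, had 4835 CPM in HWAT (4762 to 4910), against 1640 CPM in SWAT, 1996 CPM in EWAT, 645 CPM in MWAT and 875 CPM in NWAT, and 1424 CPM in the thermogenic nuclei. Cfd was the most abundant of the list, with 30817 CPM in HWAT and 15399.7 to 19632 CPM in the other depots. C4b, a complement protein, had 497 CPM in HWAT against 90.6 to 427 CPM, with 26.1 CPM in the thermogenic nuclei and 504 CPM in HWAT macrophage nuclei. Of 20 measured genes 5 were at least 2-fold above the mean (C3, C4b, Hp, Saa3 and Itih4) and 3 were 2-fold below (C7, Cd59a and Itih5), where all genes gave 10.3% and 17.6%. Only Hp and Itih4 of the 5 were also 2-fold above every other HWAT class, Itih4 with the counting limit given above. Itih5, an adipocyte gene of the same family as Itih4, had 72.1 CPM in HWAT against 192 to 450 CPM.

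Receptor genes leaned the other way. Of 21 measured hormone and adrenergic receptors 6 were at least 2-fold below the mean of the other depots and 1, Npr1, was above, with a median of -0.85, where all genes gave 17.6% below, 10.3% above and a median of -0.23. Npr3, which clears natriuretic peptides, had 53.5 CPM in HWAT against 265 CPM (SWAT), 751 CPM (EWAT), 271 CPM (MWAT) and 611 CPM (NWAT). Npr1, the signalling receptor of those peptides, had 28.2 CPM in HWAT against 8.64, 11.9, 12.5 and 4.96 CPM, but it was not 2-fold above every other HWAT class. Both natriuretic peptide receptors thus lay outside the range of the other depots, on opposite sides. Adrb3 had 410 CPM in HWAT against 1093 to 1735 CPM. Thra and Thrb, the thyroid hormone receptors, had 47.9 and 269 CPM in HWAT, against 103 to 140 CPM and 545 to 668 CPM. Relative to genes of like span the median of the list was -0.34.

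Insulin signalling gave 7 of 21 genes at least 2-fold below the mean (17.6% of all genes), among them Insr, Irs1, Irs2, Pik3ca and Grb14, and 2 above (the glycogen-targeting subunits Ppp1r3b and Ppp1r3c). Insr, the insulin receptor, had 180 CPM in HWAT and 296 to 459 CPM elsewhere, and Irs2 had 34.7 CPM and 85.3 to 129 CPM. Slc2a4, the insulin-responsive glucose transporter, had 109 CPM in HWAT and 56.2 to 105 CPM elsewhere. Among adipogenic transcription factors 4 of 18 were 2-fold below (Cebpb, Cebpd, Ebf1 and Stat5b) and 0 above, a share near that of all genes, and Pparg had 977 CPM in HWAT and 1054 to 1736 CPM elsewhere. Relative to genes of like span, the median log2 differences of both lists, -0.36 and -0.42, were 0.24 and 0.06. Both medians thus lay above those of genes of like span.

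The Hox genes, whose expression along the body axis persists in adult fat, had 18 of 27 measured members at least 2-fold below the mean of the other depots and 1, Hoxa4, above, where 17.6% and 10.3% of all genes were. With genes at 0 UMIs set at 3 counts, 16 were below. Their median log2 difference was -2.10, or -1.23 with genes at 0 UMIs set at 3 counts, and 9 of the 27 had 0 UMIs in HWAT. Hoxc8 had 0 UMIs in HWAT, which allows up to 0.882 CPM, against 52.3 CPM (SWAT), 35.6 CPM (EWAT), 16.5 CPM (MWAT) and 77.0 CPM (NWAT). It was at least 18.7-fold lower than the lowest of them. For Hoxc9, Hoxb6, Hoxb7 and Hoxb8, also at 0 UMIs, the HWAT floor reached no 2-fold difference from the lowest other depot, so only their position against the mean can be given. Hoxc6 had 6.77 CPM in HWAT against 30.9 to 63.9 CPM, and Hoxc4 had 6.47 CPM against 20.3 to 45.6 CPM. Hoxa5, more anterior in the cluster, had 9.12 CPM in HWAT against 11.7 to 20.4 CPM, and Hoxa4 had 4.71 CPM against 1.36 to 2.87 CPM. Of 33 other positional transcription factors 11 were 2-fold above the mean and 3 below, and none of the 11 was 2-fold above every other HWAT class. Tbx15, a T-box factor of subcutaneous fat, had 0.882 CPM from 3 UMIs in HWAT, against 77.0 CPM in SWAT, 2.94 CPM in EWAT, 2.25 CPM in MWAT and 16.5 CPM in NWAT.

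Other genes below every depot were mixed in kind. At least 2-fold below the lowest other depot were 1479 of 15813 genes (9.35%). Relative to genes of like span they numbered 1049. St6galnac5, a sialyltransferase, had 22.4 CPM in HWAT, against 260 CPM in MWAT, the lowest other depot, and 611 CPM in NWAT, the highest. Col5a3, a fibrillar collagen chain of adipocytes, had 6.47 CPM in HWAT against 83.7 to 223 CPM, a ratio of 0.0773 to the lowest (0.0481 to 0.118). Fgf13, an intracellular FGF homologue, had 1 UMI in HWAT (0.294 CPM) against 15.2 to 27.7 CPM, a ratio of 0.0193 to MWAT (0.000485 to 0.11). Cpne2, Rasgrf2, Mageb18, Tmem178b, Rprml and Sntg2 completed the named set, at 0.882 to 8.24 CPM in HWAT. These genes were low in HWAT against each of the 4 depots.

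Matrix and growth-factor lists held more genes below the mean than above it. Of all genes, 14.0% in the shortest and 27.4% in the longest quartile of gene span were at least 2-fold below the mean. Values relative to genes of like span are not given for these lists. Of 23 basement membrane and collagen genes 8 were at least 2-fold below the mean and 2, Fn1 and Col27a1, above, where all genes gave 17.6% and 10.3%. Col15a1 had 14.7 CPM in HWAT against 39.8 to 92.4 CPM. Of 33 genes of BMP, activin and TGF-beta signalling 13 were 2-fold below and 3 above, and of 16 FGF genes 5 were below and 0 above. Of 14 secreted angiogenic factors 3 were below (Vegfa, Angpt1 and Hgf) and 2 above (Pgf and Angpt4, at 3.53 and 2.06 CPM in HWAT). Angpt4 met the class condition by summed level. It lay under the 3-count floor of each of the 5 other HWAT classes (2.76 CPM in B cell to 29.2 CPM in T or NK cell nuclei), so it cannot be placed against them. Vegfa, the main angiogenic factor of fat, had 178 CPM in HWAT against 223 CPM (NWAT) to 556 CPM (MWAT). Angpt1 had 121 CPM in HWAT against 209 to 376 CPM. In all, 14 of the 25 lists had a median above that of all genes.

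Immediate early genes, induced within minutes of a stimulus or of tissue handling, had 10 of 20 members at least 2-fold above the mean and 1 below, and interferon-response genes had 6 of 27 above and 0 below. Over all genes measured, 10.3% were above and 17.6% below. Fos had 62.4 CPM in HWAT against 39.4 CPM (SWAT), 8.10 CPM (EWAT), 5.62 CPM (MWAT) and 3.71 CPM (NWAT). No gene of either list above the mean was 2-fold above every other HWAT class, where Fos reached 224 CPM in macrophage nuclei. The thermogenic nuclei are not among those classes. Against them 10 of 13 measured immediate early genes were at least 2-fold higher and 0 lower, with a median log2 difference of 1.36, and 6 of 18 interferon-response genes were higher and 0 lower. Over all genes, 12% were higher and 9.16% lower. Fos had 62.4 CPM in the non-thermogenic and 11.9 CPM in the thermogenic nuclei.

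**Figure D5:**
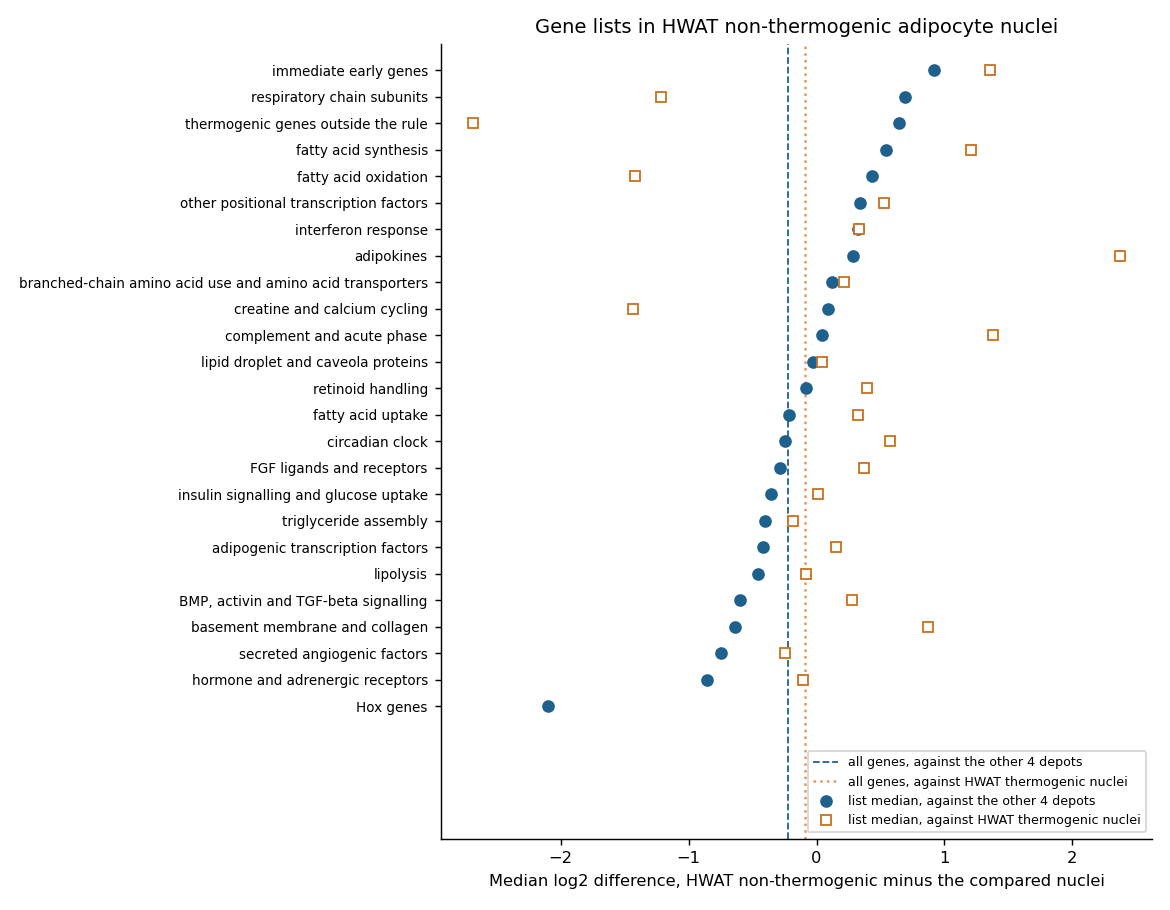
Median log2 difference of each gene list between HWAT non-thermogenic nuclei and the mean of the other 4 depots, and between them and the HWAT thermogenic nuclei (squares, drawn for lists with at least 5 genes measured there). The median over all genes was -0.23 against the other depots, the fatty acid synthesis list stood at 0.55 and 1.21, and the thermogenic list at 0.65 and -2.69.

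Among the nuclei themselves, counts thinned to 1000 UMIs (1402 nuclei) varied most for RNA of the airway and immune genes and for a few abundant adipocyte genes. The variance-to-mean ratio, near 1 for pure counting, was 60.9 for Scgb1a1, 40.4 for Igkc, 35.2 for Malat1, a nuclear RNA, and 22.5 for Bpifa1. It was 12.97 for Cfd and 11.7 for Fabp4, the fatty acid carrier, against 9.13 to 14.8 and 8.09 to 16.0 in the other depots. It was 3.73 for Thrsp and 3.84 for G0s2, against 1.55 to 3.04 and 2.03 to 2.34. Angptl8, at 2.93, was less even among HWAT nuclei than in any other depot (0.992 to 1.38), and Cidea stood at 2.05 against 0.999 to 1.52. Slc36a2 stood at 1.43 against 1.07 to 1.20, and Adipoq at 1.47, within the 1.36 to 1.64 of the other depots. A ratio above 1.5 was reached by 133 of 3209 genes in HWAT, and by 91 to 109 in the other depots. The ratio grows with the level of a gene, and these levels differ between depots, so the ratios are descriptions of 1 library each.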

How the data were processed

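The UMI counts per gene and nucleus were used as the authors deposited them in 5 filtered matrices of 32285 genes. Per the file headers they were made with Cell Ranger 6.0.1, and the submitters' processing notes name mm10, Cell Ranger and Seurat; the annotation release is not given in the sources used here. Per the labels, at least 8000 nuclei were loaded per depot and at least 20000 reads sequenced per nucleus. Every adipocyte nucleus chosen by the rule, in each of the libraries, held at least 500 UMIs. The members and gene lists were chosen with earlier results of these data known.

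Raw counts were summed over the nuclei of each group, and log2 differences had 0.5 counts added. Genes of the rule were left out. With 1 library per depot no test was run: a gene counted as above or below past 2-fold, with at least 50 UMIs over the groups. HWAT classes were formed like the members, from at least 4 UMIs of their markers. The class condition compares summed levels and leaves aside their counting error, which is wide in small classes. Named genes, outside predicted, mitochondrial and possible free-RNA genes, were the 12 with the highest lower bound of the ratio to the highest other depot among those with at least 50 UMIs in HWAT and 2-fold above every other HWAT class of at least 50 nuclei, the 5 highest failing only that class condition, the 10 with the lowest upper bound of the ratio to the lowest other depot, among those with at least 50 UMIs in each other depot, the 8 highest and 8 lowest against thermogenic nuclei (by the same bounds and class condition), and the 10 with the highest variance-to-mean ratio. From each list the 2 to 4 members with the largest difference and any opposite to the median could be named; further list members were named for their role after their values were seen. A few list members are not reported here.

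No doublets were removed. In an alternative, the nuclei with the highest simulated-doublet scores were removed at 0.8% per 1000 nuclei, which took 126 of the 1524 nuclei (8.27%). Other alternatives changed the filters, the normalization (TMM), thinning, free RNA (a library profile scaled at 15.6% in HWAT) and gene span. Coordinates are those of GRCm38. The ratio intervals were tested on simulated data. Python 3.11.15, NumPy 2.4.6, SciPy 1.17.1, pandas 2.3.3, scikit-learn 1.9.0, matplotlib 3.10.9, R 4.3.3 and edgeR 4.0.16 were used.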

Additional observations from a re-analysis of the deposited data

How the results depend on the processing

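No paired analysis was possible because each depot is 1 pooled library, so there is no replicate to pair or to leave out. The share of HWAT nuclei meeting the rule was 10.6% with at most 2% mitochondrial UMIs, 10.9% with no thermogenic UMI, 10.7% with no UMI of other cell types and 10.6% with at least 8 adipocyte UMIs. Genes at least 2-fold above the highest other depot numbered 505, but 332 after thinning and 269 with at least 200 UMIs per gene. With at least 200 UMIs, 945 genes were below the lowest other depot, 354 above thermogenic nuclei and 258 below them. Genes at least 2-fold below thermogenic nuclei numbered 747 in the report, 467 after thinning and 451 with TMM factors. Fewer genes are tested at 200 UMIs; otherwise the cause was not tested.

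The all-gene median ran from -0.26 to 0.06 over the settings. Of the list medians, 344 of the values under other settings stayed within a fixed log2 tolerance and 31 moved past it. For named genes, with a wider fixed tolerance, 554 stayed within it and 87 moved past it without turning round. The tolerances were set by choice and do not measure a spread. Among the alternatives added after seeing the data, 3 genes turned round when the 18 airway-type nuclei were left out of HWAT (log2 ratio to the highest other depot): Spag17 to -0.60, Galntl6 to -0.65 and Spag16 to -1.01. The other depots kept all their nuclei in that setting. Sntg2 turned to 6.98 with the free-RNA profile subtracted, where its level in the lowest other depot reached 0. Depth limits low genes most: 3 UMIs in the HWAT nuclei are 0.882 CPM, against 0.115 to 0.375 CPM elsewhere, and 7.12 CPM in the thermogenic nuclei.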

Other observations

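Creatine and calcium cycling, retinoid handling and amino acid use stood near the other depots. Over all genes measured, 10.3% were at least 2-fold above the mean of the other depots and 17.6% below. Of 16 measured genes of creatine and calcium cycling 2 were at least 2-fold above that mean and 0 below, and of 19 retinoid genes 2 were above and 0 below. Of 23 genes of branched-chain amino acid use and amino acid transport 2 were above and 1 below, with a median log2 difference of 0.12 against -0.23 over all genes. Against the thermogenic nuclei, 4 of 6 measured creatine and calcium genes were at least 2-fold lower and 0 higher, where all genes gave 9.16% and 12%. Circadian clock genes had 3 of 20 above the mean and 5 below, in a series that holds 1 library per depot.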
